A study of Homo sapiens with 8 samples.

Results

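The miR-30 guide strands are the mature microRNAs cut from the 5p arm of the miR-30 hairpins. The 5 rows hsa-miR-30a-5p, hsa-miR-30b-5p, hsa-miR-30c-5p, hsa-miR-30d-5p and hsa-miR-30e-5p were taken by name from a count table of 2962 small RNA features, of which 342 are microRNA rows. They were measured in 8 libraries of HEK293, a human embryonic kidney cell line. The 4 libraries of the tDR group come from cells given a synthetic copy of a fragment from the 3′ end of tRNA-Asp-GTC (tDR, tRNA-derived RNA), and the 4 of the scramble group from cells given a control mimic of scrambled sequence. Each mimic was given at 50 nM by lipid transfection, the cells were taken 48 h later, and total RNA was made into OTTR-seq libraries, where 1 enzyme adds both adapters as it copies each RNA into DNA. All libraries come from 1 cell line, and nothing in the labels tells separate cultures from repeat libraries of 1 culture. The p-values therefore rest on a library-to-library spread that may be technical.

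A microRNA is cut from a hairpin by Drosha and Dicer, and 1 strand, the guide, is loaded into an Argonaute protein. There its seed, bases 2 to 8, pairs with sites in target messenger RNAs, which are then repressed. The miR-30 guides share 1 seed. The family is abundant in kidney epithelium, where it is known for maintaining podocytes. Its member miR-30a is known to repress the autophagy genes BECN1 and ATG5. The series title links the transfected fragment to RNA autophagy in the kidney, and the comparison asks whether these guides differ once the fragment is supplied.

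The sequences below show how alike the members are, which bears on how reads can be told apart. They are from RefSeq (GRCh38.p14), which matched 3 of the 5 names in the table used here, and the seed is in capitals.
hsa-miR-30a-5p: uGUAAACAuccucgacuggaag
hsa-miR-30e-5p: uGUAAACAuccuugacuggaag
hsa-miR-30c-5p: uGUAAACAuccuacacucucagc
Over the 22 bases they share in length, hsa-miR-30a-5p and hsa-miR-30e-5p differ at 1 position, C13U, counted from the 5′ end with the base of hsa-miR-30a-5p first. hsa-miR-30c-5p differs from each of them at 5 of 22 positions, the first of them base 13. All 3 carry the seed GUAAACA, and of 2370 mature microRNAs in the table these 3 have it. A read with an error at base 13 could be counted for either hsa-miR-30a-5p or hsa-miR-30e-5p, and a read that ends before base 13 could come from any of the 3. How alike hsa-miR-30b-5p and hsa-miR-30d-5p are to these 3 was not examined, since their sequences were not matched. How the counting split reads among the 5 members therefore bears on each share below.

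The hairpins of the family lie in pairs. MIR30A (GRCh38, chromosome 6, 71403551 to 71403621, minus strand) and MIR30C2 (chromosome 6, 71376960 to 71377031, minus strand) lie in introns of the long noncoding genes LINC00472 and AL136164.2. MIR30E (chromosome 1, 40754355 to 40754446, plus strand) and MIR30C1 (chromosome 1, 40757284 to 40757372, plus strand) lie in an intron of NFYC, the gene of a subunit of the CCAAT-binding factor NF-Y. MIR30B and MIR30D are on chromosome 8. The mature hsa-miR-30c-5p is the same from MIR30C1 and MIR30C2, so its single row counts both loci.

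The libraries held between 6910186 and 8007025 counts in the tDR group and between 4016295 and 10246336 in the scramble group. At these depths a count of 0 allows up to 3 counts, which is between 0.261 and 0.674 CPM (counts per 1000000, with library sizes scaled by TMM factors, which correct for composition). As a check of the labels, the row scr2, a name with no explanation in the labels, held between 0.000737 and 0.00347% of the other counts in tDR libraries and between 0.353 and 0.568% in scramble libraries. MicroRNAs were a small part of every library, 0.682, 0.536, 0.355 and 0.414% of counts in tDR libraries 1 to 4 and 0.476, 0.649, 0.804 and 0.948% in scramble libraries 1 to 4. These ranges overlap, tDR libraries 3 and 4 have the lowest shares, and the part of this in the results was not tested. Of 14 microRNAs that mark blood, endothelium, muscle, liver or neurons, 7 had a row, and these summed to between 8.21 and 14.9 CPM in tDR libraries and between 5.46 and 8.09 CPM in scramble libraries, which do not overlap. Scaled to total counts without TMM the sums overlapped, at 7.37 to 15.8 in tDR libraries and 5.22 to 8.96 in scramble libraries. The endothelial hsa-miR-126-3p was the most abundant, with a mean of 6.22 CPM in tDR libraries and 4.60 CPM in scramble libraries, and the rows for miR-486-5p, miR-223-3p, miR-1-3p, miR-133a-3p and miR-124-3p were at 0 in at least 1 library each. The part of these markers in the results was not tested.

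miR-30c-5p was the main guide of the family in every library. It averaged 32.7 ± 8.17 CPM in tDR libraries and 44.5 ± 7.46 CPM in scramble libraries (SD, n = 4 each) and ranked 26 of 196 tested microRNAs by mean CPM. The other 4 were at most 11.1 CPM in any library, below the 25.6 CPM of the lowest miR-30c-5p value. In tDR libraries their order was miR-30e-5p with 7.43 ± 1.29 CPM, miR-30d-5p with 6.78 ± 2.91 CPM, miR-30b-5p with 6.44 ± 2.61 CPM and miR-30a-5p with 4.96 ± 1.50 CPM (SD, n = 4). In scramble libraries it was miR-30b-5p with 7.67 ± 2.53 CPM, miR-30d-5p with 7.49 ± 1.41 CPM, miR-30e-5p with 6.13 ± 1.52 CPM and miR-30a-5p with 4.51 ± 1.17 CPM (SD, n = 4). Neighbours among these 4 differ by less than the larger of their SDs except miR-30e-5p and miR-30a-5p in scramble libraries, whose difference exceeds each SD while their ranges overlap. These SDs are between libraries, whereas the members were measured in the same libraries. Within every library miR-30e-5p was above miR-30a-5p, and no member was below miR-30a-5p. For scale, the most abundant microRNA, hsa-miR-19b-3p of the miR-17-92 cluster, averaged 1300 ± 419 CPM in tDR libraries and 1624 ± 526 CPM in scramble libraries (SD, n = 4 each).

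**Figure D1:**
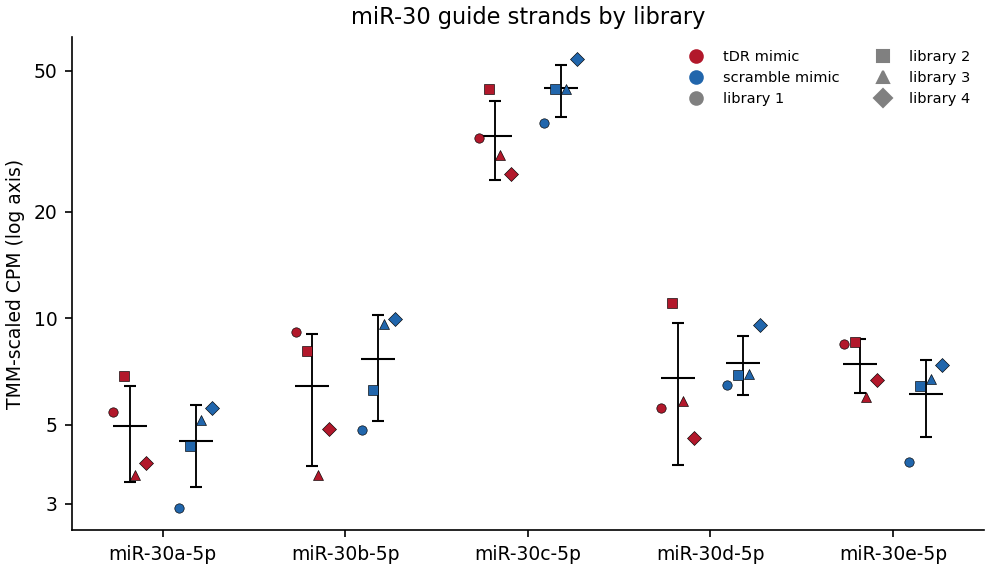
CPM (log axis) of the 5 miR-30 guides, tDR libraries in red to the left of scramble libraries in blue, with the mean and SD as bars (n = 4 each). miR-30c-5p stands above the other 4 in every library, and the tDR and scramble ranges overlap for each member.

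Within the family, the tDR libraries held relatively less miR-30c-5p and relatively more miR-30a-5p and miR-30e-5p. Shares were taken of the summed counts of the 5 guides, which were 447, 506, 344 and 327 in tDR libraries 1 to 4 and 423, 722, 324 and 991 in scramble libraries 1 to 4. A share does not depend on the scaling of the library. The 5 shares of a library sum to the whole, so a fall of 1 member raises the others, and the members are not independent.

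miR-30c-5p made up 53.0, 56.1, 60.2 and 56.0% of the family in tDR libraries 1 to 4, against 66.2, 65.0, 60.8 and 62.4% in scramble libraries 1 to 4. The groups did not overlap, by a margin of 60.2% in tDR library 3 against 60.8% in scramble library 3. These 2 libraries have 95% exact binomial intervals of 54.8 to 65.4% and 55.3 to 66.2%, which cover counting error only, so the gap between them is within that error. The means were 56.3 ± 2.94% in tDR libraries and 63.6 ± 2.44% in scramble libraries (SD, n = 4 each).

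miR-30e-5p made up 13.9, 10.9, 12.5 and 14.7% in tDR libraries 1 to 4, against 7.33, 9.42, 9.26 and 8.58% in scramble libraries 1 to 4. Every tDR library was above every scramble library, and the mean share was 13.0 ± 1.67% in tDR libraries and 8.65 ± 0.951% in scramble libraries (SD, n = 4 each), 1.50-fold higher. miR-30a-5p, the member best known for repressing BECN1, made up 8.95, 8.70, 7.56 and 8.56% in tDR libraries 1 to 4, against 5.44, 6.37, 7.10 and 6.46% in scramble libraries 1 to 4. It too did not overlap, with means of 8.44 ± 0.610% in tDR libraries and 6.34 ± 0.684% in scramble libraries (SD, n = 4 each).

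The sum of miR-30a-5p and miR-30e-5p does not depend on how reads were split between these near-identical guides. It does depend on any reads shared with miR-30c-5p, and on any shared with miR-30b-5p or miR-30d-5p, whose sequences were not compared. This sum made up 22.8, 19.6, 20.1 and 23.2% in tDR libraries 1 to 4, against 12.8, 15.8, 16.4 and 15.0% in scramble libraries 1 to 4. These groups did not overlap either. As neither member overlapped alone, their sum could not overlap, so it adds no support to the separate shares. miR-30b-5p and miR-30d-5p overlapped widely. miR-30b-5p took 10.9 ± 3.07% in tDR libraries and 10.7 ± 2.05% in scramble libraries, and miR-30d-5p took 11.4 ± 2.18% in tDR libraries and 10.7 ± 1.10% in scramble libraries (SD, n = 4 each).

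**Figure D2:**
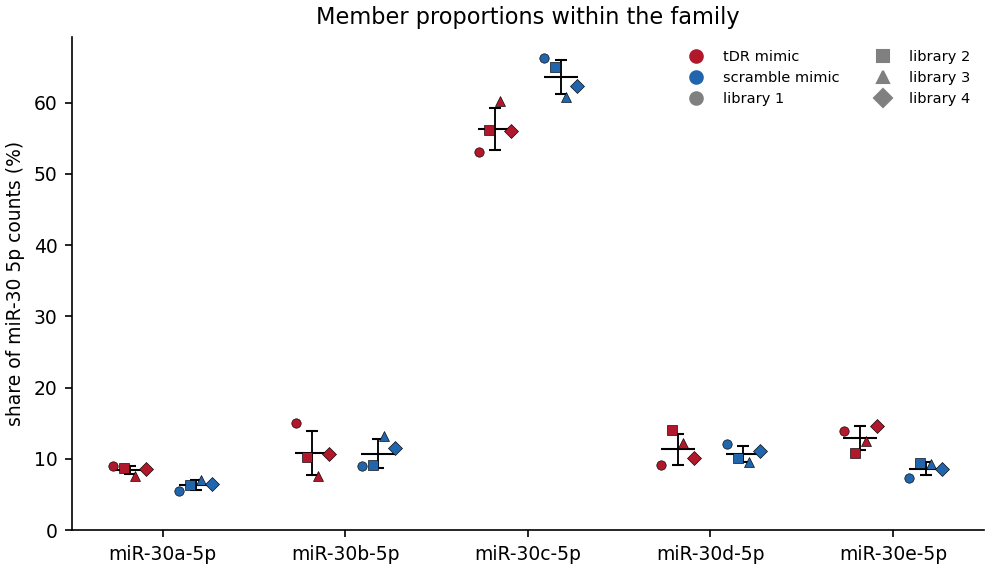
Share of each guide in the summed miR-30 5p counts of its library (percent), tDR libraries in red to the left of scramble libraries in blue, with the mean and SD as bars (n = 4 each). miR-30c-5p is lower and miR-30a-5p and miR-30e-5p are higher in all tDR libraries than in any scramble library.

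The shift was tested in every microRNA family at once, over 63 microRNAs in 27 families of the same number and arm. Shares did not overlap between the groups for 5 of the 63, or 7.94%, and 3 of these 5 are the miR-30 members above. The other 2 are hsa-let-7a-5p and hsa-let-7g-5p. In a family of 2 members the rows mirror each other, so the 63 are not separate comparisons, and shares of the 63 and adjusted p-values count such rows again. The 63 also include hsa-miR-365a-3p and hsa-miR-365b-3p, each with a mean share of 50% in both groups. Rows that are always equal cannot separate the groups and lower the percentages given for the 63. edgeR's diffSpliceDGE, which sets each member against its whole family, called 0 of 63 (0.0%) at an adjusted p below 0.05, and 1 had an unadjusted p below 0.05 (1.59%). Its adjusted p was 0.998 for each miR-30 member, with unadjusted p of 0.102 for miR-30e-5p, 0.265 for miR-30a-5p and 0.441 for miR-30c-5p. In that test the family total includes the member itself, so a dominant member such as miR-30c-5p is set largely against itself. The diffSplice of limma, which sets a member against the other members, called none of miR-30a-5p, miR-30c-5p and miR-30e-5p either. With limma-voom their log2 differences were 0.36, -0.43 and 0.58 in that order. On the submitters' normalized signal they were 0.29, -0.44 and 0.50 (limma diffSplice adjusted p = 0.988 for each).

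A test chosen after seeing the data, limma on the log2 ratio of a member's count to the rest of its family, called 4 of 63 (6.35%), and 10 had an unadjusted p below 0.05 (15.9%). The 4 were miR-30e-5p, with a log2 difference of 0.64 (limma adjusted p = 0.0394), miR-30a-5p, with 0.45 (limma adjusted p = 0.0394), and the 2 let-7 members. miR-30c-5p had a log2 difference of -0.44 and did not pass (limma adjusted p = 0.0684). Without weights the same test called neither member (limma adjusted p = 0.0559 for both). With each of the 8 libraries left out in turn, miR-30e-5p passed only without tDR library 2 (limma adjusted p between 0.0464 and 0.147, log2 difference between 0.57 and 0.74). In the same runs miR-30a-5p passed only without tDR library 3 (limma adjusted p between 0.0481 and 0.147, log2 difference between 0.39 and 0.50). miR-30c-5p also passed without tDR library 3 (limma adjusted p = 0.0481). The exact two-sided permutation p was 0.0286 for each of miR-30a-5p, miR-30c-5p and miR-30e-5p, higher or lower in 4 of 4 tDR libraries. This is the smallest that 70 arrangements can give, and 0.36 when adjusted over the 63 by Benjamini-Hochberg. Any share whose groups do not overlap gets this p, so it restates the lack of overlap and adds no support to it.

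In level, none of the 5 guides passed the test between the groups. The quasi-likelihood test of edgeR, adjusted by Benjamini-Hochberg over 1761 features, called 0 of the 5 members. Over all features it called 118, or 6.7%, of which 94 (5.34%) were higher and 24 (1.36%) lower in tDR libraries. Among 196 tested microRNAs it called 9, or 4.59%, all lower. That direction depended on the scaling and on 2 libraries, since scaled on microRNAs alone 5 microRNAs were called higher and 1 lower, and without both tDR 3 and tDR 4 the counts were also 5 higher and 1 lower. At an unadjusted p below 0.05 there was 1 member, miR-30c-5p, beside 30.1% of tested microRNAs and 21.5% of all features. DESeq2 and limma-voom also called 0 members. The CPM ranges of the 2 groups overlapped for all 5 members, while they did not overlap for 13.3% of all tested features.

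miR-30c-5p stood at 32.3, 44.3, 28.8 and 25.6 CPM in tDR libraries 1 to 4, against 35.6, 44.5, 44.2 and 53.8 CPM in scramble libraries 1 to 4. tDR library 2 lay within the scramble range and the other 3 tDR libraries lay below it. Its log2 fold change was -0.45 (SE 0.18, 95% interval -0.83 to -0.063, edgeR adjusted p = 0.162). The call depended on 1 library, since without tDR library 2 the log2 fold change was -0.62 (edgeR adjusted p = 0.0461). Scaled on microRNAs alone it was -0.11 (edgeR adjusted p = 0.72), and without both tDR 3 and tDR 4, the libraries with the fewest microRNA counts for their depth, it was -0.22 (edgeR adjusted p = 0.602).

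miR-30e-5p, the MIR30E guide, stood at 8.45, 8.57, 5.98 and 6.70 CPM in tDR libraries 1 to 4, against 3.94, 6.45, 6.74 and 7.40 CPM in scramble libraries 1 to 4. tDR libraries 1 and 2 lay above the scramble range and the other two within it. The log2 fold change was 0.27 (SE 0.25, 95% interval -0.25 to 0.79, edgeR adjusted p = 0.584), and 0.63 when scaled on microRNAs alone (edgeR adjusted p = 0.0789).

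miR-30a-5p stood at 5.45, 6.86, 3.62 and 3.91 CPM in tDR libraries 1 to 4, against 2.92, 4.36, 5.17 and 5.57 CPM in scramble libraries 1 to 4. tDR library 2 was the highest of all 8 and scramble library 1 the lowest. The log2 fold change was 0.13 (SE 0.29, 95% interval -0.46 to 0.73, edgeR adjusted p = 0.86), and it was -0.030 under total counts. Scaled on microRNAs alone it was 0.48 (edgeR adjusted p = 0.218), and without both tDR 3 and tDR 4 it was 0.45 (edgeR adjusted p = 0.51).

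miR-30b-5p stood at 9.13, 8.11, 3.62 and 4.89 CPM in tDR libraries 1 to 4, against 4.83, 6.26, 9.66 and 9.93 CPM in scramble libraries 1 to 4. Each group held both low and high libraries. miR-30d-5p stood at 5.59, 11.1, 5.84 and 4.61 CPM in tDR libraries 1 to 4, against 6.48, 6.92, 6.96 and 9.58 CPM in scramble libraries 1 to 4. Here tDR library 2 was the highest, and the other tDR libraries lay below every scramble library. The log2 fold change of miR-30b-5p was -0.24 (SE 0.30, 95% interval -0.87 to 0.39, edgeR adjusted p = 0.738). That of miR-30d-5p was -0.16 (SE 0.27, 95% interval -0.73 to 0.41, edgeR adjusted p = 0.814). Scaled on microRNAs alone they were 0.085 and 0.17. The members other than miR-30c-5p averaged between 36.8 and 56.5 counts per library.

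**Figure D3:**
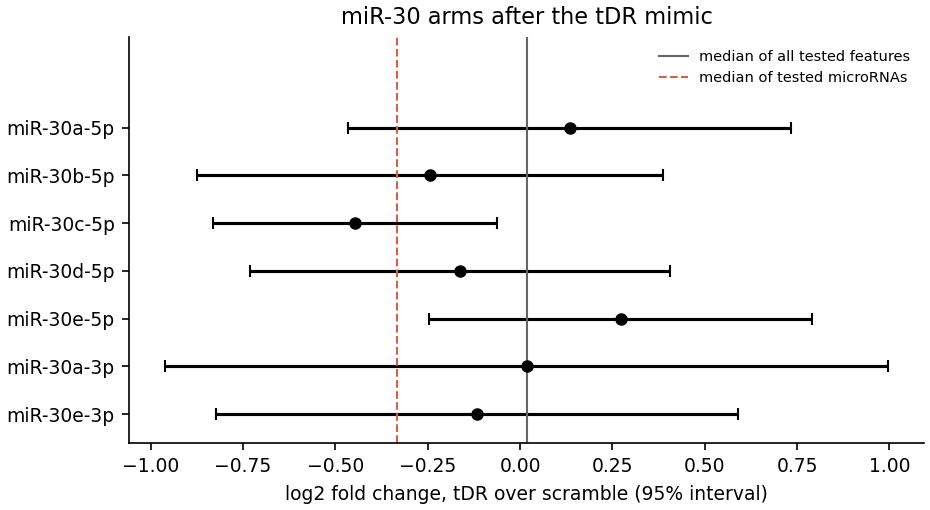
Log2 fold change of the 5 guides and 2 tested 3p arms, tDR over scramble, with 95% intervals from edgeR, and the medians of all tested features (solid line) and of tested microRNAs (dashed line). The interval of miR-30c-5p lies below 0 before adjustment, and the other 6 intervals include 0.

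The summed family did not separate the groups, either in level or as a share of microRNA counts. The 5 guides summed to 60.9, 78.9, 47.9 and 45.7 CPM in tDR libraries 1 to 4, against 53.7, 68.5, 72.8 and 86.3 CPM in scramble libraries 1 to 4. As a share of all microRNA counts they made up 0.949, 1.24, 1.21 and 1.11% in tDR libraries 1 to 4, against 1.08, 1.09, 1.00 and 1.02% in scramble libraries 1 to 4. tDR library 1 was the lowest and tDR library 2 the highest of all 8, so the ranges overlap. The 95% exact binomial interval of tDR library 1, 0.863 to 1.04%, lies below that of tDR library 2, 1.14 to 1.36%, so libraries of 1 group differed by more than counting error. The median log2 fold change was -0.16 over the 5 members, -0.33 over tested microRNAs and 0.020 over all tested features. The microRNA median was 0.0084 when scaled on microRNAs alone and -0.082 without both tDR 3 and tDR 4. In bulk RNA, less of a microRNA per cell and fewer cells that make it cannot be told apart.

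**Figure D4:**
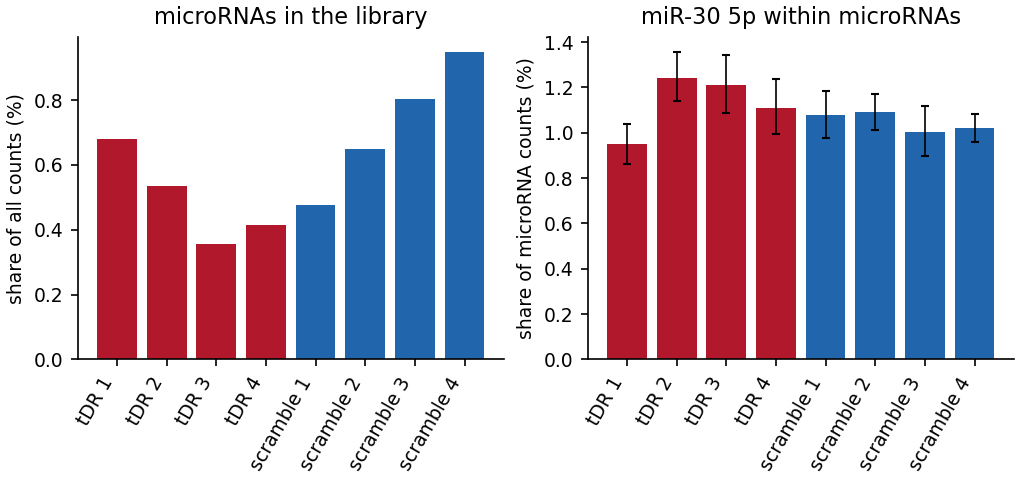
Left, microRNA counts as percent of all counts in each library; right, summed miR-30 5p counts as percent of microRNA counts with 95% exact binomial intervals, tDR libraries in red and scramble libraries in blue. The microRNA share runs from 0.355% in tDR library 3 to 0.948% in scramble library 4, while the miR-30 share stays between 0.949 and 1.24%.

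The passenger strands, cut from the 3p arm of the same hairpins, were counted less often. Of the 6 listed 3p arms 4 had a row and 2 passed the filter on low counts, and 0 of these were called in either direction. miR-30e-3p (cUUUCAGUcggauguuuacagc, bases 2 to 8 in capitals, shown because its seed differs from that of the guide) averaged 3.42 ± 1.16 CPM in tDR libraries and 3.81 ± 1.56 CPM in scramble libraries (SD, n = 4 each). miR-30a-3p averaged 1.58 ± 0.868 CPM in tDR libraries and 1.52 ± 0.622 CPM in scramble libraries. The log2 fold change was -0.12 for miR-30e-3p (SE 0.34, edgeR adjusted p = 0.897). For miR-30a-3p it was 0.017 (SE 0.47, edgeR adjusted p = 0.99).

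The guide outnumbered its passenger in every library for both hairpins. Counts of miR-30e-5p over miR-30e-3p were 2.48, 1.72, 2.69 and 2.18 in tDR libraries 1 to 4, against 1.94, 1.70, 1.15 and 2.07 in scramble libraries 1 to 4. The ratios of miR-30a-5p to miR-30a-3p were 2.35, 2.93, 5.20 and 4.00 in tDR libraries 1 to 4, against 2.56, 3.83, 3.83 and 2.29 in scramble libraries 1 to 4. Both sets of ranges overlap, and diffSpliceDGE over 74 rows of hairpins with both arms gave adjusted p of 0.999 for each 5p arm, with log2 differences of 0.14 for miR-30e and 0.025 for miR-30a. It called 0 of the 74 (0.0%), with 0 at an unadjusted p below 0.05, and limma on log ratios also called 0. Of the arms too low to test, miR-30c-1-3p had 2, 5, 4 and 6 counts in tDR libraries 1 to 4 and 0, 6, 1 and 2 in scramble libraries 1 to 4, and miR-30b-3p had 2, 1, 3 and 0 counts in tDR libraries 1 to 4 and 1, 15, 3 and 5 in scramble libraries 1 to 4.

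Other microRNAs described as acting on autophagy genes were set beside the family. Of 11 listed, 10 had a row and 8 were tested. At an adjusted p below 0.05 edgeR called 0 of these higher and 0 lower, while all 8 log2 fold changes were below 0, with a median of -0.34 and a range of -0.62 to -0.22. The most abundant, hsa-miR-17-5p, averaged 166 ± 52.0 CPM in tDR libraries and 207 ± 41.2 CPM in scramble libraries (SD, n = 4 each, log2 fold change -0.32, SE 0.20, edgeR adjusted p = 0.377). Of 12 kidney epithelial microRNAs 7 had a row and 5 were tested, again with 0 called and a median of -0.076. The most abundant of them, hsa-miR-10a-5p, averaged 35.4 ± 11.1 CPM in tDR libraries and 33.0 ± 8.22 CPM in scramble libraries (SD, n = 4 each, edgeR adjusted p = 0.866), near the level of miR-30c-5p. Of 196 tested microRNAs 159 had a log2 fold change below 0, and their median was -0.33. Scaled on microRNAs alone that median was 0.0084, so the shared direction of a list depends on the scaling.

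Among 54 other microRNAs averaging 100 or more counts, hsa-miR-339-5p followed the summed miR-30 guides most closely over the 8 libraries (Pearson r of log2 CPM 0.972), then hsa-miR-19a-3p (0.942) and hsa-miR-342-3p (0.940). The median r over the 54 was 0.825, with 37 of them above 0.8, and all of these values share the library, its depth and its scaling. hsa-miR-339-5p stood at 15.8, 18.1, 11.8 and 11.9 CPM in tDR libraries 1 to 4, against 12.3, 16.1, 16.6 and 21.7 CPM in scramble libraries 1 to 4, with a low pair in tDR libraries 3 and 4 and a low scramble library 1 as in the family sum.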

How the data were processed

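One deposited table gives raw read counts, as whole numbers, for 2964 rows in 8 columns, which carry the library names of the labels. Its rows scr and scr2 name no gene and were dropped before library sizes were summed. The other deposited table gives a normalized signal, in which each count is divided by a factor of its library, with another factor for tRNA rows. The submitters' processing notes name hg38. The aligner, counter and annotation behind the counts were not given in the sources used here.

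Levels were fitted in edgeR 4.0.16 under R 4.3.3 with filterByExpr, TMM, robust quasi-likelihood fit, Benjamini-Hochberg adjusted p below 0.05, over 1761 features, while 1201 failed the filter. The common biological coefficient of variation was 19.0%. SE is the log2 fold change over the square root of F. Shares and arms used diffSpliceDGE with families or hairpins as the gene level. The added log-ratio test used limma 3.58.1 with a pseudocount of 0.5. Its weights came from counting variance plus a chosen constant variance, the inverse of 20. Fits were also run on simulated data, and the outcome of those runs is not given here or used as support. Counts of the 12 pairs of replicates differed beyond sampling noise (chi-square per degree of freedom at least 13.2), so no library was counted as a copy of another.

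Members and lists were chosen with earlier results of these data known. Named microRNAs are the members, their 3p arms, the 3 most like the family sum, the most abundant ones and 1 or more per list. The 2 let-7 members and the 2 miR-365 rows were chosen after their values were seen. Alternatives were DESeq2 1.42.0, limma-voom, 3 other scalings, 2 other filters, each library left out in turn, limma on log2 (normalized signal + 1), and the replicate number as a block. Added after seeing the data were the log-ratio and exact share tests, the authors' factors and leaving out tDR libraries 3 and 4. The summed share of miR-30a-5p and miR-30e-5p was not planned. Loci are from GENCODE release 29.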

Additional observations from a re-analysis of the deposited data

Results flagged for a closer look

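Over 28 groups of 4 libraries checked for a value far from the others (member levels, member shares, arm ratios and the family's 2 totals), 1 was found. Chance flags about 1 group in 20, so 1 among 28 is no more than chance gives. miR-30d-5p stood at 9.58 CPM in scramble library 4, while the other scramble libraries lay between 6.48 and 6.96 CPM. Its share of the family in that library, 11.1%, lay within the 9.57 to 12.1% of the other scramble libraries, and the same library had the highest summed level of the family, 86.3 CPM.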

How the results depend on the processing

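With 1 library left out, the count of called features ran from 65 to 164, of called microRNAs from 5 to 22 and of called members from 0 to 1. miR-30c-5p stayed below 0 in all 19 alternatives, with log2 fold changes between -0.62 and -0.11, and between -0.62 and -0.34 with 1 library left out (edgeR adjusted p between 0.0461 and 0.405). miR-30e-5p stayed above 0 in all 19, between 0.11 and 0.63. miR-30a-5p ran from -0.049 to 0.26 with 1 library left out and was -0.030 under total counts, 0.48 when scaled on microRNAs alone and 0.45 without tDR libraries 3 and 4. Without tDR libraries 3 and 4 miR-30b-5p and miR-30d-5p were at 0.18 and 0.13, and under scaling on microRNAs alone at 0.085 and 0.17. With 1 library left out they ran from -0.48 to -0.044 and from -0.49 to -0.013. That scaling moved the median of all features from 0.020 to 0.36 and that of microRNAs from -0.33 to 0.0084, with 160 calls higher and 1 lower against 94 and 24. Total counts moved it to -0.13, with 54 higher and 39 lower. Without tDR libraries 3 and 4 the split was 118 and 1, and the microRNA median was -0.082.

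Called features were 185 with limma on the normalized signal, and called microRNAs were 21 there, 14 without a filter and 18 with DESeq2. In the share test miR-30b-5p and miR-30d-5p ran from -0.17 to 0.14 and from -0.045 to 0.20 with 1 library left out. With limma-voom and on the normalized signal the share test was the diffSplice of limma, which sets a member against the other members, not the whole family. By that measure miR-30b-5p and miR-30d-5p were at -0.096 and -0.062 with limma-voom and at -0.22 and -0.13 on the normalized signal. miR-30a-5p, miR-30c-5p and miR-30e-5p kept their direction by either measure in every alternative that held them. Without 1 library they ran from 0.36 to 0.45, from -0.20 to -0.15 and from 0.49 to 0.65. By the log ratio the shares of miR-30a-5p and miR-30e-5p passed, at 0.45 and 0.64, and those of miR-30b-5p and miR-30d-5p ran from -0.17 to 0.19 and from -0.039 to 0.21 with 1 library left out. Without tDR libraries 3 and 4 the log ratios were 0.51 and 0.56 (limma adjusted p = 0.157 and 0.188). The arm balance of miR-30a ran from -0.026 to 0.072 with 1 library left out and was -0.040 without tDR libraries 3 and 4. That of miR-30e ran from 0.062 to 0.19 with 1 library left out. With limma-voom, the normalized signal and the log ratio it was 0.35, 0.41 and 0.37, and that of miR-30a was 0.22, 0.17 and 0.12. The causes of these changes were not tested.

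With the replicate block 39 features and 1 microRNA were called, and miR-30c-5p had a log2 fold change of -0.46 (edgeR adjusted p = 0.329). Same-numbered libraries had correlations between -0.42 and -0.15 once each group was centred, so no sign of pairing by number was seen. Library-wide traits can dominate such correlations, so they cannot exclude pairing. A mean count of at least 50 left miR-30a-5p and the 3p arms out, so those have no value there.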
